A study of Mus musculus with 28 samples.

Results

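The genes of the circadian clock described here (Arntl, Clock, Per2, Cry1, Cry2, Nr1d1, Nr1d2, Dbp, Bhlhe40 and Bhlhe41) are 10 of the 54429 genes in the deposited count table and were followed through 28 RNA sequencing libraries of O9-1 cells. The members are set by name, with no threshold on a measured value, and all 10 had enough counts to be tested in every comparison. O9-1 is 1 mouse cell line of cranial neural crest origin, a migrating embryonic population from which most facial bone and cartilage arise, and each of its 8 groups here differs from the others in culture medium, oxygen or both. Proliferating cells were kept in DMEM conditioned by STO feeder cells, with 15% fetal calf serum (FCS), 25 ng/ml bFGF, 5 ng/ml LIF and 55 µM beta-mercaptoethanol. Osteoblast cultures spent 10 days in alpha-MEM with 10% FCS, 10 mM beta-glycerophosphate, 100 ng/ml BMP-2 and 0.1 µM dexamethasone. Chondrocyte cultures spent 3 days in that medium and then 7 days as micromasses on matrigel, with 5% FCS, insulin-transferrin-selenium, 10 ng/ml TGF-beta3, 50 ng/ml BMP-2 and 0.1 µM dexamethasone. Smooth muscle cultures spent 3 days in DMEM with 10% FCS, for which no dexamethasone is listed. Each of the 4 cultures was grown at 21% O2 (normoxic, n = 4 libraries per group) and at 0.5% O2 (hypoxic, n = 3 libraries per group), and no group carries a genetic change per the labels.

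The mammalian clock is a transcriptional loop. ARNTL (also called BMAL1) and CLOCK bind E-box sequences as a pair and switch on the Per and Cry genes, whose proteins return to the nucleus and repress that pair. A second loop runs through the nuclear receptors NR1D1 and NR1D2 (REV-ERB alpha and beta), which are switched on by the same pair and repress Arntl. Dbp is a direct E-box target that carries the rhythm to output genes through D-box sequences. Bhlhe40 and Bhlhe41 (DEC1 and DEC2) encode E-box repressors and are also known as genes induced by low oxygen, and Per1 and Per2 are known glucocorticoid targets. In cultured cells a change of medium or a dose of dexamethasone can set the phase of the clock. The time of harvest is not given in the sources used here, so a shift in phase, a loss of synchrony and a change in mean level cannot be told apart in any comparison below.

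Promoter sequence shows which members hold the letters that the loop reads. Windows of 300 bases, from 250 before to 50 after an annotated start site, were available for 8 members in RefSeq (GRCm38). Per2 and Bhlhe40 had no window and were not searched for any motif. The 4 members whose window held an E-box (CACGTG) or its variant, the E′-box (CACGTT, or AACGTG when read on the other strand), are shown for the 250 bases before the start site, 5′ to 3′ on the gene's strand, in lower case with those matches in capitals. The positions are chr6:145865421-145865670 (minus strand) for Bhlhe41, chr10:85185055-85185304 (minus strand) for Cry1, chr11:98775378-98775627 (minus strand) for Nr1d1 and chr2:92434070-92434319 (minus strand) for Cry2.
Bhlhe41: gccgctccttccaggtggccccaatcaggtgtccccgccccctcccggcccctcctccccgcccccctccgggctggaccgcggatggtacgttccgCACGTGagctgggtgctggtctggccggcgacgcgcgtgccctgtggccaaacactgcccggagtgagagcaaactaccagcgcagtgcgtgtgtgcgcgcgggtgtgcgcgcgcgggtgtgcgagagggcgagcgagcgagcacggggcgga
Cry1: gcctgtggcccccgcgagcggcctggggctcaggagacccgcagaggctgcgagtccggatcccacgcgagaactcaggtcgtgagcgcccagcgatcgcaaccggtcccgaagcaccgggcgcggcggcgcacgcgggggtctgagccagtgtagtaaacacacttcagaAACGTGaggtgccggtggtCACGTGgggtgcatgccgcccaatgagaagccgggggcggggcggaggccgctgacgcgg
Nr1d1: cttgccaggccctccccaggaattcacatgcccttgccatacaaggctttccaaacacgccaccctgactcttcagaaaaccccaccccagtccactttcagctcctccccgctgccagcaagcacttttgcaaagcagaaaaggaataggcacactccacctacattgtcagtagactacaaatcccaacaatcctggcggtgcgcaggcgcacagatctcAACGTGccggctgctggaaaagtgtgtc
Cry2: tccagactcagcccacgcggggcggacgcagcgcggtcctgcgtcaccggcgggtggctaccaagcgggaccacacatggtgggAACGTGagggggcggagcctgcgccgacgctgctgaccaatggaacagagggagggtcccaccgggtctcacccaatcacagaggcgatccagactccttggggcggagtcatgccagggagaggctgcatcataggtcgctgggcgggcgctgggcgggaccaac
The E-box starts 153 bases before the start site in Bhlhe41 and 60 bases before it in Cry1. The E′-box starts 79 bases before the start site in Cry1, 166 in Cry2 and 28 in Nr1d1. Among 32851 windows of the same length, 7.15% held CACGTG and 4.68% held CACGTT on either strand. Neither D-box searched, TTATGTAA (in 0.938% of all windows) or TTACGTAA (in 0.119%), was found in a member's window. The core of the element bound by REV-ERB and ROR proteins, TAGGTCA, which 2.61% of windows held, was found in a window of Arntl, starting at base 30 after the start site. The core of the hypoxia response element, ACGTG, which lies inside both CACGTG and AACGTG, was in the windows of Cry1, Cry2, Nr1d1, Dbp and Bhlhe41 (in 19.6% of all windows), and its other form, GCGTG, was in those of Clock, Cry1, Cry2, Nr1d1, Nr1d2, Dbp and Bhlhe41 (in 32.4%). No window of the 8 members held the palindromic glucocorticoid response element, which 0.475% of all windows held. Such matches describe the letters of these windows and say nothing of binding.

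Library totals lay between 19.87 and 64.69 x 1e+06 counts. Levels below are CPM (counts per 1e+06 counts of the library) after TMM scaling, a scaling that sets the bulk of genes equal between libraries, and changes are log2 fold changes ± SE from edgeR, called when the p adjusted over all genes tested was under 0.05. The labels do not say whether libraries of a group came from separate cultures, so the p-values measure only the spread between these libraries. The oxygen labels were compared with 19 hypoxia response genes, of which 19 rose at 0.5% O2 in proliferating, osteoblast and smooth muscle cultures (33.1%, 27.0% and 35.4% of all genes rose) and 16 in chondrocyte cultures (10.4%). That list was chosen with earlier results of these data known, so it is not an independent check. The 3 hypoxic smooth muscle libraries stood apart: mitochondrial ribosomal RNA took 11.62% to 13.31% of their counts and at most 0.0889% elsewhere. Their smooth muscle markers went against their label, with summed levels of Acta2, Tagln, Cnn1 and Myh11 between 28.5 and 42.3 CPM, against 3323 to 3757 CPM in the normoxic smooth muscle libraries and 36.3 to 43.3 CPM in hypoxic proliferating ones. In every comparison with these 3 libraries, oxygen, the low smooth muscle markers and the mitochondrial RNA share cannot be told apart, and a change with low oxygen in smooth muscle cultures below means only a difference between these libraries and the normoxic ones. Scaling by library size alone instead moved the median of all genes by -1.37 (log2) in hypoxic against normoxic smooth muscle cultures and by -1.28 against hypoxic proliferating cells. In those comparisons the sign of a smaller change can rest on the scaling, and members whose sign flips are named where they are described. The chondrocyte markers summed to between 2793 and 8413 CPM in normoxic chondrocyte cultures and to between 842 and 1255 CPM in hypoxic ones. Osteoblast markers summed to 62.7 to 146 CPM in normoxic osteoblast cultures, overlapping with the 58.4 to 67.4 CPM of normoxic proliferating cells, and to 366 to 393 CPM in hypoxic osteoblast cultures. Of the 5 markers, 1 averaged at least 1 CPM in normoxic proliferating cells and 4 did in normoxic osteoblast cultures. Of the 4 tested between these groups 3 rose, with a median log2 change of 7.40, where 40.9% of all genes rose. The summed osteoblast markers were highest in chondrocyte cultures, with 1053 to 2548 CPM at 21% O2 and 779.6 to 1259 CPM at 0.5% O2. Smooth muscle markers summed to 3064 to 4682 CPM in normoxic osteoblast cultures, overlapping with normoxic smooth muscle cultures, and to 1702 to 2290 CPM in the other chondrocyte and osteoblast libraries. Normoxic osteoblast library 4 stood apart from the other 3 of its group, with a chi-square per degree of freedom of 91.1 to 97.04 over all genes against 2.89 to 3.88 among those 3. Without it the members called numbered 6 in normoxic osteoblast against proliferating cultures, 9 with oxygen in osteoblast cultures and 8 in the osteoblast interaction, and Clock with oxygen (0.28 ± 0.07, adjusted p = 0.0033) and Arntl in the interaction (0.37 ± 0.15, adjusted p = 0.0416) gained a call. Of the neural crest list, Sox10 averaged at most 0.00671 CPM in any group, while the other 5 genes each averaged at least 1 CPM in all 8 groups. Markers of skeletal muscle summed to at most 0.203 CPM, of endothelium to at most 7.62 CPM, of glia to at most 13.2 CPM and of adipocytes to at most 23.1 CPM, the last in hypoxic osteoblast cultures, where Fabp4 was the one of 4 above 1 CPM. The part of other cell types in the results was not tested.

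**Figure D1:**
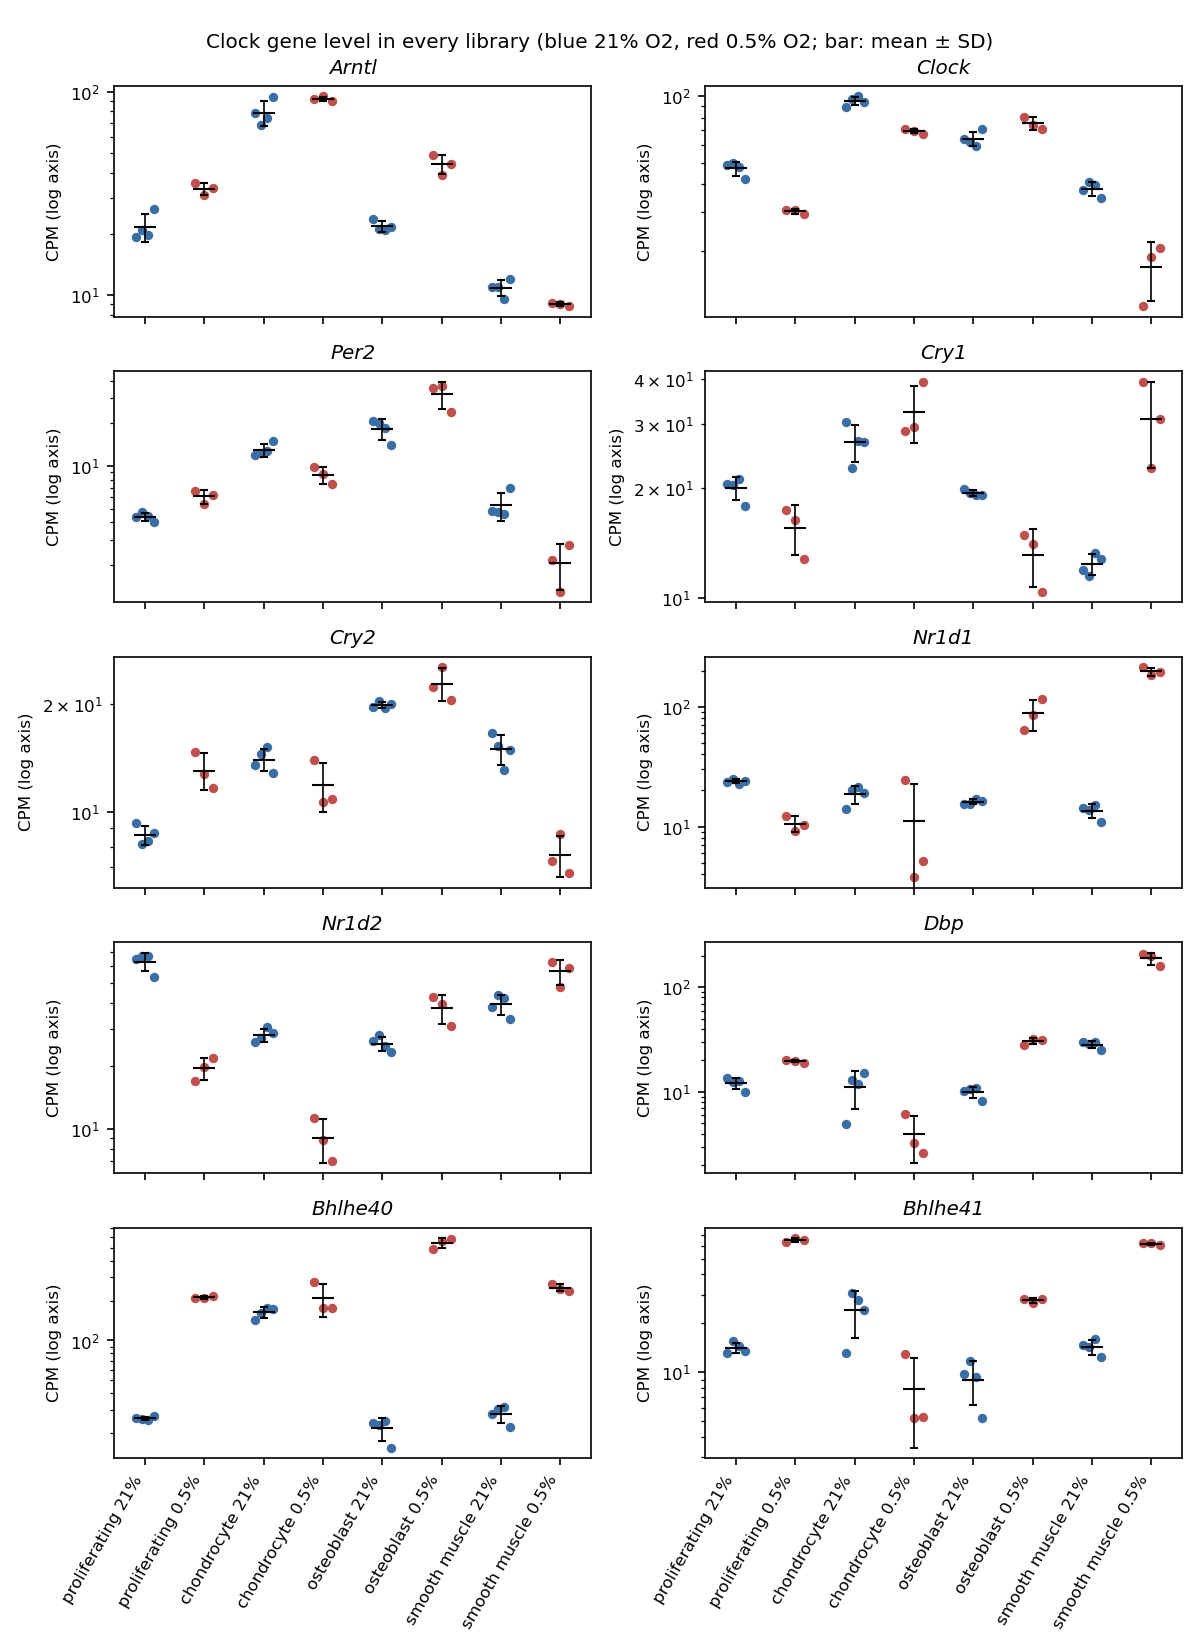
Level of each of the 10 clock genes in every library, in CPM on a log axis that differs between panels, for 8 groups (blue, 21% O2; red, 0.5% O2; black bar, mean ± SD). Under the TMM scaling shown, Nr1d1 and Dbp are highest in the 3 hypoxic smooth muscle libraries. By library size alone the hypoxic smooth muscle and hypoxic osteoblast libraries overlap for Nr1d1. Bhlhe40 lies between 15.5 and 31.5 CPM in 3 normoxic groups and above 143 CPM in all other groups.

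Low oxygen in proliferating cells moved all 10 genes. Of the 10, 6 rose and 4 fell in hypoxic against normoxic proliferating cells, where 33.1% of all genes tested rose and 32.3% fell (65.4% called), and the libraries of both groups did not overlap for any member, nor for 65.0% of all genes tested. Bhlhe40 rose the most, from 25.9 ± 0.676 CPM (SD, n = 4) to 211 ± 4.31 CPM (SD, n = 3), a log2 change of 3.09 ± 0.05 (adjusted p = 1.44e-14). Bhlhe41 rose by 2.26 ± 0.07 (adjusted p = 5.21e-12). Dbp, Arntl, Cry2 and Per2 rose by between 0.53 and 0.75. Both REV-ERB genes fell, Nr1d2 by 1.64 ± 0.10 (adjusted p = 7.99e-09) and Nr1d1 by 1.11 ± 0.10 (adjusted p = 3.28e-07). Clock fell by 0.59 and Cry1 by 0.31, and the call for Cry1 (adjusted p = 0.0205) was lost without normoxic library 3 or without hypoxic library 3. The median change of the 10 was 0.60, against 0.01 over all genes tested.

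In the other cultures the same step in oxygen gave other patterns. At 0.5% O2 the summed chondrocyte markers were lower in chondrocyte cultures and the summed osteoblast markers higher in osteoblast cultures. Oxygen and the degree of differentiation therefore cannot be told apart there. In osteoblast cultures 7 members rose and 1 fell, with 27.0% of all genes called higher and 27.3% lower (54.3% in all), and the median of the 10 was 0.91 against -0.03 over all genes. In smooth muscle cultures 6 rose and 3 fell, with 35.4% of all genes called higher and 40.2% lower (75.6% in all), and the median was 0.99 against -0.12; with scaling by library size alone 4 rose and 5 fell. In chondrocyte cultures no member was called higher and 4 were called lower, with 10.4% of all genes called higher and 11.8% lower (22.2% in all), and the median was -0.52 against -0.01. That count of 4 was 2 without hypoxic chondrocyte library 3 and 6 without hypoxic chondrocyte library 1. Across these 4 oxygen comparisons, 31 of 40 member values were called.

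**Figure D2:**
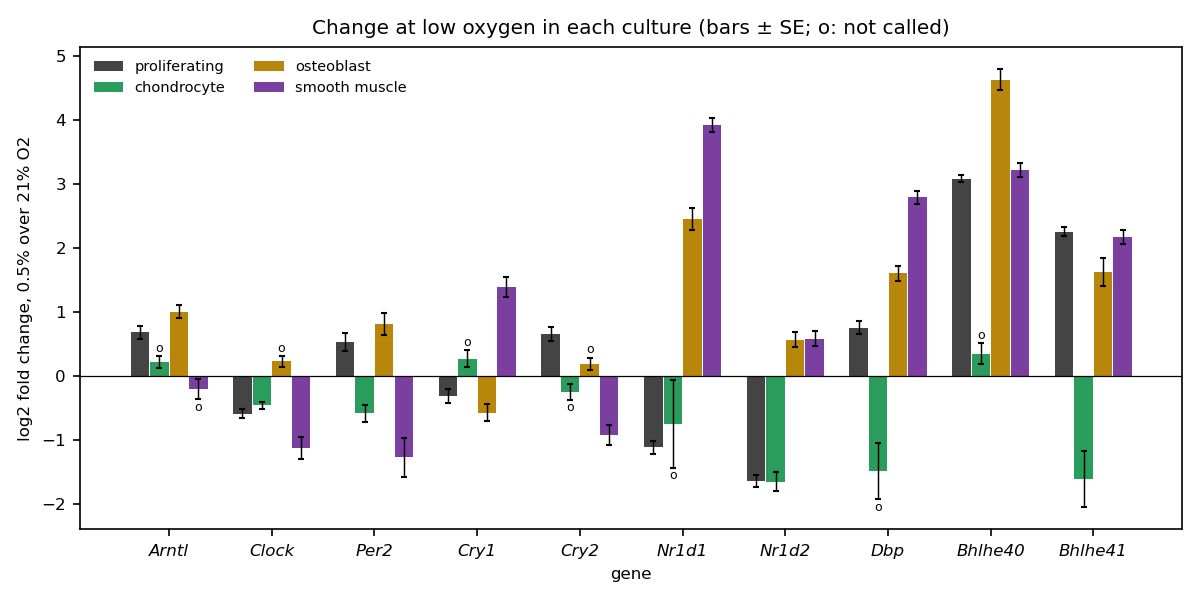
Log2 fold change of each clock gene at 0.5% over 21% O2 in proliferating, chondrocyte, osteoblast and smooth muscle cultures (bars, edgeR estimate; whiskers, SE; a small o marks values that were not called). Bhlhe40 rose in 3 cultures and was not called in chondrocyte cultures, Nr1d1 fell in proliferating cells and rose in osteoblast and smooth muscle cultures, and the rise of Nr1d2 in smooth muscle cultures turns to a fall of 0.78 with scaling by library size alone.

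Whether the oxygen change of a culture differed from that of proliferating cells was tested as an interaction. In chondrocyte cultures 1 member had a more positive oxygen change than proliferating cells and 6 a more negative one (21.6% and 21.9% of all genes, 43.5% in all). In osteoblast cultures 5 were more positive and 2 more negative (28.9% and 25.3% of all genes, 54.2% in all), and in smooth muscle cultures 4 and 4 (34.9% and 35.5% of all genes, 70.4% in all), or 3 and 6 by library size alone. All 3 interactions share the libraries of the proliferating groups, so their counts are not independent of each other.

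Arntl and Clock encode the activating pair. Arntl (ENSMUSG00000055116, chr7:113207465-113314126, plus strand, GRCm38) was highest in chondrocyte cultures, where the 4 normoxic libraries held 78.9, 68.4, 74.2 and 94.6 CPM and the 3 hypoxic ones 92.3, 94.8 and 90.02 CPM. Proliferating libraries held 19.3, 20.9, 19.8 and 26.6 CPM at 21% O2 and 35.7, 30.9 and 33.4 CPM at 0.5% O2. All chondrocyte libraries thus lay above all proliferating ones. Arntl was 3.85-fold higher in normoxic chondrocyte than in normoxic proliferating cultures (log2 1.95 ± 0.13, adjusted p = 7.75e-08) and rose by 1.46 ± 0.07 at 0.5% O2 (adjusted p = 6.18e-10). Smooth muscle cultures had the least, with 10.9, 10.95, 9.54 and 12.04 CPM at 21% O2 and 9.15, 9.07 and 8.80 CPM at 0.5% O2. The level there fell by 0.94 ± 0.11 against proliferating cells at 21% O2 (adjusted p = 1.42e-06) and by 1.77 ± 0.13 at 0.5% O2 (adjusted p = 2.45e-07), or by 3.04 ± 0.12 by library size alone. With low oxygen Arntl changed in smooth muscle cultures by -0.21 ± 0.16 (adjusted p = 0.246), not called. By library size alone that change was -1.58 ± 0.16 (adjusted p = 2.73e-07). Osteoblast cultures held 21.8 ± 1.32 CPM at 21% O2 (SD, n = 4), overlapping with proliferating cells, and 44.0 ± 4.78 CPM at 0.5% O2 (SD, n = 3), which was a rise with low oxygen of 1.01 ± 0.10 (adjusted p = 3.52e-05).

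Clock (ENSMUSG00000029238, chr5:76209868-76304792, minus strand) moved within a narrower range than Arntl, 5.62-fold between the highest and the lowest group mean against 10.3-fold. These ranges were 3.15-fold and 8.50-fold without hypoxic smooth muscle cultures. Clock was highest in normoxic chondrocyte cultures, with 89.6, 97.0, 99.7 and 94.2 CPM, and lowest in hypoxic smooth muscle cultures, with 11.2, 18.8 and 20.7 CPM. Normoxic proliferating libraries held 48.8, 49.8, 47.8 and 42.3 CPM. Between these, chondrocyte conditions raised Clock by 1.09 ± 0.06 at 21% O2 (adjusted p = 9.04e-09) and by 1.19 ± 0.07 at 0.5% O2 (adjusted p = 2.98e-09), an oxygen difference that was not called (interaction 0.14 ± 0.09, adjusted p = 0.228). Osteoblast conditions raised it by 0.50 ± 0.07 at 21% O2 and by 1.32 ± 0.08 at 0.5% O2, and this difference was called (0.86 ± 0.11, adjusted p = 9.95e-06). Low oxygen lowered Clock in proliferating (-0.59), chondrocyte (-0.46) and smooth muscle cultures (-1.12 ± 0.17, adjusted p = 2.35e-05; -2.50 ± 0.17 by library size), and its change of 0.23 ± 0.09 in osteoblast cultures had an adjusted p of 0.0523. Arntl and Clock therefore moved in opposite directions with low oxygen in proliferating cells, where Arntl rose by 0.68 ± 0.11 (adjusted p = 8.78e-05).

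**Figure D3:**
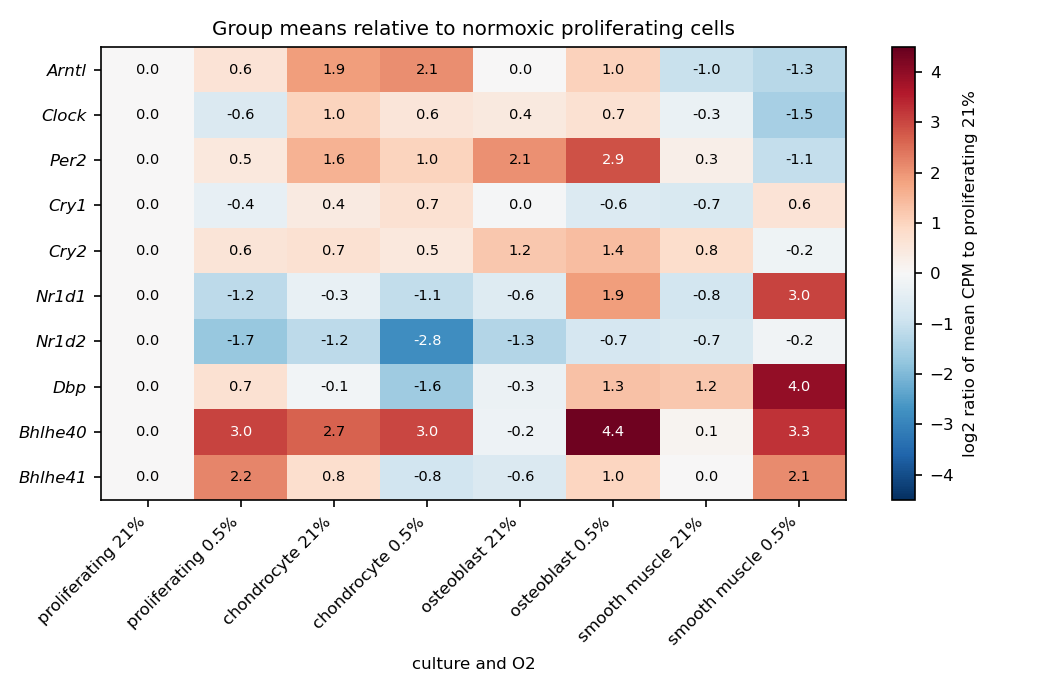
Group means of the 10 clock genes as log2 ratios of mean CPM to the normoxic proliferating group, which is 0 by construction (red, higher; blue, lower). Arntl is highest in the chondrocyte columns, Clock in the normoxic chondrocyte column and Per2 in the osteoblast columns, and the hypoxic smooth muscle column depends on the scaling, since by library size alone, against hypoxic proliferating cells, Bhlhe40 turns from a called rise to a called fall, Cry1 from a called rise to -0.15, not called, and Bhlhe41 from no call to a called fall.

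Of the repressors Per2, Cry1 and Cry2, both Per2 and Cry2 had their highest group means in osteoblast cultures and their lowest in hypoxic smooth muscle cultures, and Cry1 did not. Per2 (ENSMUSG00000055866, chr1:91415982-91459324, minus strand) was highest in osteoblast cultures, with 20.7, 20.03, 18.5 and 14.0 CPM at 21% O2 and 35.6, 36.8 and 24.2 CPM at 0.5% O2. Normoxic proliferating libraries held 4.33, 4.70, 4.41 and 4.03 CPM, and hypoxic ones 6.70, 5.35 and 6.23 CPM. No osteoblast library overlapped with a proliferating one. Osteoblast conditions raised Per2 by 2.12 ± 0.13 at 21% O2 (adjusted p = 2.95e-07) and by 2.40 ± 0.16 at 0.5% O2 (adjusted p = 2.85e-09), which are 4.34-fold and 5.26-fold. Chondrocyte conditions raised it by 1.64 ± 0.11 (adjusted p = 6.57e-08) and by 0.50 ± 0.15 (adjusted p = 0.0104), and the second call was lost without hypoxic proliferating library 2 and by library size alone (0.17 ± 0.15, adjusted p = 0.321). The smooth muscle libraries held 4.78, 4.72, 4.55 and 7.03 CPM at 21% O2 and 2.17, 1.296 and 2.78 CPM at 0.5% O2, the lowest of the 8 groups. Against normoxic proliferating cells the change at 21% O2 was 0.32 ± 0.16 (adjusted p = 0.0749), not called. It was called by library size alone (0.40 ± 0.16, adjusted p = 0.0290) and with at least 10 counts in every library (0.37 ± 0.16, adjusted p = 0.0402). Low oxygen lowered Per2 in smooth muscle cultures by 1.27 ± 0.31 (adjusted p = 0.00162), or by 2.63 ± 0.30 by library size alone. It lowered Per2 in chondrocyte cultures by 0.58 ± 0.13 (adjusted p = 0.0093), a call lost without hypoxic chondrocyte library 3 (adjusted p = 0.0525), and raised it in osteoblast cultures by 0.81 ± 0.17 (adjusted p = 0.00352).

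Both media in which the rise of Per2 was called in the main fit contain dexamethasone, a synthetic glucocorticoid. The smaller change in normoxic smooth muscle medium, which lists none, was called in 2 alternatives given above. Both media with dexamethasone differ from the others in further components, so dexamethasone and the rest of the medium cannot be told apart. Of 9 known glucocorticoid response genes, 9 rose in normoxic osteoblast against normoxic proliferating cultures with a median of 2.76, and 9 rose in the hypoxic pair with a median of 3.39, where 40.9% and 36.2% of all genes rose. In chondrocyte cultures 7 rose and 1 fell at 21% O2 (37.7% of all genes rose and 37.2% fell) and 6 rose and 2 fell at 0.5% O2 (34.9% and 34.6%). In smooth muscle cultures 8 could be tested, of which 5 rose and 3 fell at 21% O2 (40.8% and 38.9%) and 4 rose and 4 fell at 0.5% O2 (33.8% and 36.2%). Fkbp5, the FK506-binding cochaperone of the glucocorticoid receptor, held 77.6 CPM in normoxic proliferating, 371 CPM in normoxic chondrocyte, 507 CPM in normoxic osteoblast and 17.6 CPM in normoxic smooth muscle cultures. Tsc22d3, the glucocorticoid-induced leucine zipper, held 15.8, 371 and 1184 CPM in the first 3 of these groups and 46.3 CPM in normoxic smooth muscle cultures, where it was thus above the proliferating level and Fkbp5 below it. Low oxygen raised 9 of the 9 in osteoblast cultures and 1 of 9 in chondrocyte cultures, with 27.0% and 10.4% of all genes raised. In proliferating and in smooth muscle cultures, whose media list no dexamethasone, it raised 5 of 8 and lowered 1, under TMM scaling, with 33.1% and 35.4% of all genes raised. Per1, which is on that list and is the paralog of Per2, held 16.7 CPM in normoxic proliferating, 103 CPM in normoxic chondrocyte, 135 CPM in normoxic osteoblast and 31.0 CPM in normoxic smooth muscle cultures.

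Cry1 (ENSMUSG00000020038, chr10:85131700-85185064, minus strand), whose window holds both motifs shown above, had the narrowest range of the 10, 2.62-fold between the highest and the lowest group mean, and 5 of the 7 neighbouring pairs of groups in its order overlapped. Its levels ran from 32.4 ± 5.83 CPM in hypoxic chondrocyte (SD, n = 3) to 12.4 ± 0.822 CPM in normoxic smooth muscle cultures (SD, n = 4). Hypoxic smooth muscle libraries held 39.1, 22.7 and 31.0 CPM, against 11.9, 11.5, 13.3 and 12.8 CPM at 21% O2, a rise of 1.39 ± 0.16 (adjusted p = 1.18e-06) that was 0.03 ± 0.17 with scaling by library size alone. Against hypoxic proliferating cells (17.4, 16.3 and 12.8 CPM) the same libraries rose by 1.12 ± 0.19 (adjusted p = 2.75e-04), and that change was -0.15 ± 0.21 with scaling by library size alone. Chondrocyte conditions raised Cry1 by 0.49 ± 0.10 at 21% O2 (adjusted p = 5.46e-04; 0.15 ± 0.10, not called, by library size) and by 1.05 ± 0.15 at 0.5% O2 (adjusted p = 5.20e-05). In osteoblast cultures low oxygen lowered it by 0.57 ± 0.13 (adjusted p = 0.0050).

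Cry2 (ENSMUSG00000068742, chr2:92403646-92434043, minus strand) followed osteoblast conditions, with 19.6, 20.3, 19.5 and 20.02 CPM at 21% O2 and 22.3, 25.3 and 20.5 CPM at 0.5% O2. Normoxic proliferating libraries held 9.31, 8.12, 8.32 and 8.72 CPM and hypoxic ones 14.7, 12.8 and 11.7 CPM. The rise with osteoblast conditions was 1.26 ± 0.08 at 21% O2 (adjusted p = 3.29e-07) and 0.80 ± 0.12 at 0.5% O2 (adjusted p = 2.97e-05). Normoxic smooth muscle cultures had more Cry2 than proliferating cells (0.85 ± 0.10, adjusted p = 1.42e-06) and hypoxic ones less (-0.66 ± 0.18, adjusted p = 0.00597; -1.94 ± 0.17 by library size). Cry1 and Cry2 thus moved in opposite directions with low oxygen in smooth muscle cultures under TMM scaling, where Cry2 fell by 0.92 ± 0.16 (adjusted p = 1.12e-04). By library size alone Cry2 fell there by 2.29 and Cry1 was not called.

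Nr1d1 and Nr1d2 encode the REV-ERB repressors of the second loop. Nr1d1 (ENSMUSG00000020889, chr11:98767932-98775333, minus strand) held 23.5, 25.0, 22.8 and 24.0 CPM in normoxic proliferating libraries and 12.4, 9.12 and 10.2 CPM in hypoxic ones. In osteoblast cultures it held 15.5, 15.5, 17.1 and 16.4 CPM at 21% O2 and 64.4, 85.6 and 116 CPM at 0.5% O2. In smooth muscle cultures it held 14.4, 13.7, 15.3 and 10.96 CPM at 21% O2 and 214, 184 and 193 CPM at 0.5% O2. All 6 hypoxic osteoblast and smooth muscle libraries lay above all 22 other libraries. By library size alone the hypoxic smooth muscle libraries held 114, 92.8 and 100 CPM, overlapping with 64.1, 83.9 and 113 CPM in hypoxic osteoblast ones. Low oxygen lowered Nr1d1 2.17-fold in proliferating cells and raised it 5.50-fold in osteoblast cultures (log2 2.46 ± 0.18, adjusted p = 6.37e-06). Hypoxic smooth muscle libraries held 15.1-fold more than normoxic ones (3.92 ± 0.11, adjusted p = 1.36e-13), a change that was 2.55 ± 0.12 by library size alone. Against the oxygen change of proliferating cells the interaction was 3.62 ± 0.22 for osteoblast (adjusted p = 4.21e-09) and 5.08 ± 0.15 for smooth muscle cultures (adjusted p = 1.09e-17), the latter being 3.74 ± 0.16 by library size alone.

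In chondrocyte cultures Nr1d1 rested on a single library. The normoxic libraries held 14.0, 20.3, 21.5 and 19.1 CPM and the hypoxic ones 24.4, 3.78 and 5.13 CPM, so hypoxic library 1 lay above all normoxic libraries and the other 2 below all of them. The change with low oxygen was -0.75 ± 0.68 (adjusted p = 0.507) with all libraries and -2.06 ± 0.21 (adjusted p = 1.02e-04) without hypoxic library 1. Against hypoxic proliferating cells it was 0.07 ± 0.82 (adjusted p = 0.946) and became -1.24 ± 0.18 (adjusted p = 2.29e-06) without that library. The fall of 0.28 in normoxic chondrocyte against proliferating cells (adjusted p = 0.0424) was kept in 1 of the 8 fits that left out 1 library.

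Nr1d2 (ENSMUSG00000021775, chr14:18204054-18239127, minus strand) had its highest mean in normoxic proliferating cells, with 64.9, 66.9, 67.4 and 53.6 CPM, and fell there to 16.9, 19.8 and 21.8 CPM at 0.5% O2, which is 3.12-fold. Hypoxic smooth muscle libraries, with 63.1, 47.9 and 59.1 CPM under TMM scaling, overlapped with the normoxic proliferating ones. Nr1d2 was lowest in hypoxic chondrocyte cultures, with 11.2, 8.82 and 6.998 CPM against 26.1, 27.1, 30.8 and 28.6 CPM at 21% O2 (-1.65 ± 0.14, adjusted p = 1.75e-05). At 21% O2 it fell with all 3 kinds of differentiation, by 1.09 in chondrocyte, 1.25 in osteoblast and 0.63 in smooth muscle cultures. At 0.5% O2 it fell with chondrocyte conditions by 1.12 ± 0.16 (adjusted p = 4.53e-05) but rose with osteoblast conditions by 0.96 ± 0.13 (adjusted p = 6.53e-06) and with smooth muscle conditions by 1.66 ± 0.14 (adjusted p = 6.56e-07), or by 0.39 ± 0.14 by library size alone (adjusted p = 0.0268). The interaction was 2.25 ± 0.17 in osteoblast (adjusted p = 2.97e-08) and 2.27 ± 0.16 in smooth muscle cultures (adjusted p = 2.95e-11; 0.94 ± 0.17 by library size), and was 0.0045 ± 0.19 in chondrocyte cultures (adjusted p = 0.998). Low oxygen raised Nr1d2 by 0.57 ± 0.12 in osteoblast (adjusted p = 0.0033) and by 0.59 ± 0.12 in smooth muscle cultures (adjusted p = 3.35e-04), and the latter turned to -0.78 ± 0.13 with scaling by library size alone.

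Dbp (ENSMUSG00000059824, chr7:45705088-45710203, plus strand), the E-box output gene, had a 47.1-fold range between group means under TMM scaling. Without hypoxic smooth muscle cultures the range was 7.61-fold, below those of Bhlhe40 (24.8-fold), Arntl (8.50-fold), Nr1d1 (8.39-fold) and Bhlhe41 (8.31-fold). The hypoxic smooth muscle libraries held 209, 198 and 159.7 CPM and the normoxic ones 29.8, 28.5, 30.1 and 25.3 CPM. Osteoblast libraries held 28.2, 31.7 and 31.5 CPM at 0.5% O2 and 10.3, 10.6, 10.98 and 8.23 CPM at 21% O2, and proliferating ones 20.3, 19.9 and 19.1 CPM against 13.5, 12.5, 12.8 and 9.91 CPM. Low oxygen thus raised Dbp in 3 cultures, by 2.79 ± 0.10 in smooth muscle (adjusted p = 2.70e-12; 1.43 ± 0.11 by library size), 1.61 ± 0.12 in osteoblast (adjusted p = 6.55e-06) and 0.75 ± 0.10 in proliferating cells (adjusted p = 1.56e-05). In chondrocyte cultures the normoxic libraries held 4.91, 13.1, 11.8 and 15.2 CPM and the hypoxic ones 6.15, 3.27 and 2.60 CPM, which overlap through normoxic library 1. The change there was -1.49 ± 0.44 with an adjusted p of 0.0505, and it was called lower without normoxic library 1 (-1.74 ± 0.29, adjusted p = 0.0031) and without hypoxic library 1 (-1.94 ± 0.46, adjusted p = 0.0282). With all libraries it was also called lower by library size alone (adjusted p = 0.0343) and with at least 10 counts in every library (adjusted p = 0.0452). The DESeq2 Wald test (adjusted p = 0.0142) and 1 fit over all 8 groups (adjusted p = 3.88e-04) called it lower too. Against hypoxic proliferating cells Dbp fell by 2.30 ± 0.27 (adjusted p = 6.78e-05).

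Bhlhe40 (ENSMUSG00000030103, chr6:108660629-108666925, plus strand) separated the libraries into a low and a high set. Normoxic proliferating libraries held 26.0, 25.5, 25.3 and 26.8 CPM, normoxic osteoblast ones 24.0, 23.3, 24.7 and 15.5 CPM and normoxic smooth muscle ones 27.7, 30.5, 31.5 and 22.1 CPM. Normoxic chondrocyte libraries held 143, 159.8, 177 and 174 CPM, overlapping with the 277, 174 and 177 CPM of hypoxic chondrocyte libraries. Low oxygen gave 210.1, 207 and 216 CPM in proliferating, 488, 562 and 578 CPM in osteoblast and 266, 245 and 237 CPM in smooth muscle libraries. The oxygen change was therefore largest in osteoblast cultures, 24.8-fold (4.63 ± 0.17, adjusted p = 1.63e-07), was 3.22 ± 0.11 in smooth muscle cultures (adjusted p = 1.35e-12; 1.85 ± 0.12 by library size), and was not called in chondrocyte cultures (0.35 ± 0.16, adjusted p = 0.174). The chondrocyte interaction was -2.72 ± 0.19 (adjusted p = 6.65e-08) and the osteoblast one 1.59 ± 0.16 (adjusted p = 8.49e-07). The smooth muscle interaction of 0.18 ± 0.12 was not called and turned to -1.16 ± 0.13 by library size alone. Bhlhe40 was also higher in hypoxic smooth muscle than in hypoxic proliferating cells by 0.36 ± 0.07 (adjusted p = 0.00107), which turned to -0.91 ± 0.08 by library size alone.

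At 21% O2, chondrocyte conditions raised Bhlhe40 by 2.73 ± 0.07 (adjusted p = 1.94e-11), and 14 of the 19 hypoxia response genes rose and 1 fell in that comparison, with a median of 0.93 against 0.00 over all genes tested, of which 37.7% rose and 37.2% fell. In normoxic osteoblast against proliferating cultures 7 of the 19 rose and 9 fell (40.9% and 37.8% of all genes), and in normoxic smooth muscle cultures 4 of 18 rose and 12 fell (40.8% and 38.9%). Over all 28 libraries the gene most like Bhlhe40 among 8871 ranked genes was Bnip3, a mitophagy receptor and one of those 19, with a Pearson r of 0.965 on log2 CPM (0.962 over the 25 libraries other than hypoxic smooth muscle). It was followed by Pygl (0.960), the liver form of glycogen phosphorylase, and Plekha2 (0.943). Bnip3 held 148, 225, 209.8 and 336 CPM in normoxic chondrocyte libraries, above its 24.8 to 49.4 CPM in the other normoxic libraries and below its 601 to 947 CPM in hypoxic ones. These correlations are a description over libraries that fall into 8 groups and are not independent points.

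**Figure D4:**
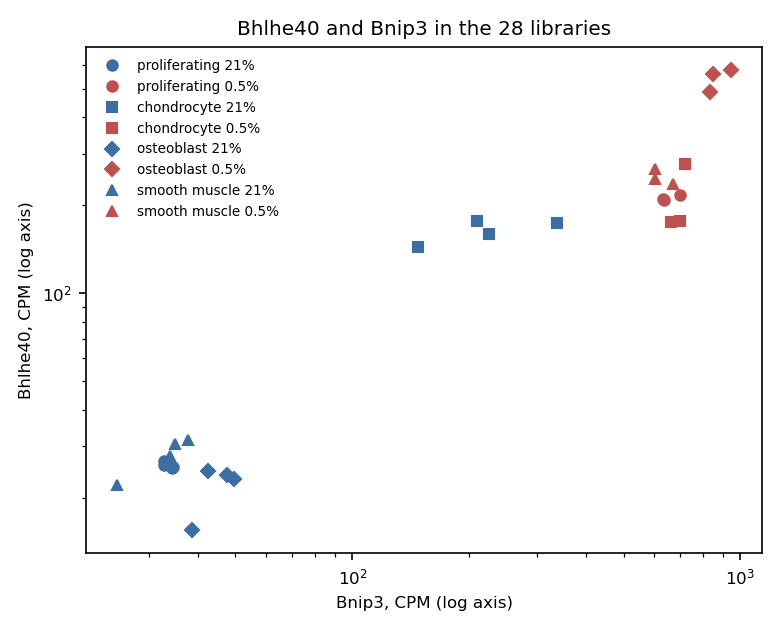
Bhlhe40 against Bnip3 in the 28 libraries, both in CPM on log axes (blue, 21% O2; red, 0.5% O2; the marker shape gives the culture). The 4 normoxic chondrocyte libraries lie between the other normoxic libraries, at 15.5 to 31.5 CPM of Bhlhe40, and the hypoxic osteoblast libraries, at 488 to 578 CPM.

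Bhlhe41 (ENSMUSG00000030256, chr6:145858243-145865558, minus strand), whose window has the E-box shown above, rose with low oxygen alongside its paralog Bhlhe40 in proliferating, osteoblast and smooth muscle cultures. It was highest in hypoxic proliferating libraries, with 63.0, 66.8 and 65.5 CPM against 13.04, 15.4, 14.4 and 13.5 CPM at 21% O2. Hypoxic smooth muscle libraries held 62.4, 62.3 and 60.6 CPM and normoxic ones 14.8, 14.3, 15.9 and 12.3 CPM. Osteoblast libraries held 28.1, 26.7 and 28.2 CPM at 0.5% O2 and 9.74, 11.7, 9.29 and 5.22 CPM at 21% O2. Low oxygen raised it by 2.17 ± 0.11 in smooth muscle (adjusted p = 8.96e-11; 0.80 ± 0.11 by library size) and 1.62 ± 0.22 in osteoblast cultures (adjusted p = 2.93e-04). In chondrocyte cultures, where Bhlhe40 was high at both oxygen levels, Bhlhe41 held 13.1, 30.9, 27.9 and 24.0 CPM at 21% O2 and 12.9, 5.24 and 5.32 CPM at 0.5% O2. The fall there was 1.61 ± 0.44 on the log2 scale (adjusted p = 0.0427), and the call was kept in 2 of the 7 fits that left out 1 library. Against hypoxic proliferating cells Bhlhe41 fell by 3.05 ± 0.38 in hypoxic chondrocyte (adjusted p = 0.00116) and by 1.24 ± 0.08 in hypoxic osteoblast cultures (adjusted p = 1.54e-09). In hypoxic osteoblast cultures the paralogs therefore moved in opposite directions, since Bhlhe40 rose there by 1.36 ± 0.07 (adjusted p = 1.86e-10). Its difference between hypoxic smooth muscle and hypoxic proliferating cells, 0.05 ± 0.08, was not called and turned to -1.23 ± 0.09 by library size alone.

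Differentiation moved the members in both directions. Against normoxic proliferating cells, 7 rose and 2 fell in normoxic chondrocyte (37.7% of all genes rose and 37.2% fell, 74.9% in all), 3 rose and 3 fell in osteoblast (40.9% and 37.8%, 78.7% in all) and 2 rose and 5 fell in smooth muscle cultures (40.8% and 38.9%, 79.7% in all). By library size alone these counts were 5 and 2, 3 and 5, and 4 and 5. Against hypoxic proliferating cells, 4 rose and 3 fell in hypoxic chondrocyte (34.9% of all genes rose and 34.6% fell, 69.5% in all), 8 rose and 1 fell in osteoblast (36.2% and 35.1%, 71.3% in all) and 5 rose and 4 fell in smooth muscle cultures (33.8% and 36.2%, 70.0% in all). By library size alone these counts were 3 and 4, 7 and 2, and 3 and 6. The members' share of calls, 47 of 60 values, lies near that of all genes and says nothing particular about the clock. Their medians were 0.80, -0.09 and -0.09 in the 3 normoxic comparisons and 0.03, 0.88 and 0.20 in the 3 hypoxic ones, and those of all genes tested lay between -0.07 and 0.07.

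In the order of the 8 groups by mean, 1 of the 7 neighbouring pairs of groups overlapped in their libraries for Clock. Arntl had 2 such pairs, Per2, Nr1d1, Nr1d2, Dbp and Bhlhe40 had 3 each, Cry2 and Bhlhe41 had 4 each and Cry1 had 5. Levels can be compared between genes only per length, here as CPM per kilobase of merged exons. In normoxic proliferating cells they ran from 0.746 for Per2 to 11.7 for Nr1d2, and Nr1d1 followed at 7.74. In hypoxic proliferating cells Bhlhe40 led with 44.9 and Bhlhe41 followed with 9.69. In hypoxic smooth muscle cultures Nr1d1 (64.0), Dbp (63.1) and Bhlhe40 (53.0) stood well above the other 7 members, the highest of which, Nr1d2, reached 10.5. In normoxic chondrocyte cultures Bhlhe40 (34.8) and Arntl (10.5) led.

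Within-group spread of some members was carried by the first chondrocyte libraries. The pooled SD of log2(CPM + 1) within groups was larger for Nr1d1 (0.457) than for 98.9% of 12930 genes, for Bhlhe41 (0.347) than for 95.7% and for Dbp (0.327) than for 94.1%. That of the other 7 lay between 0.128 for Cry2 and 0.225 for Per2, against a median of 0.166 over all genes. Without the first library of each chondrocyte group, an alternative chosen after seeing the data, the SD was 0.193 for Nr1d1 (larger than for 63.3% of genes), 0.206 for Bhlhe41 (68.3%) and 0.151 for Dbp (43.9%), within the 0.116 to 0.230 of the other 7. Deviations from the group means of Dbp, Nr1d1, Bhlhe40 and Bhlhe41 went together, with Pearson r between 0.62 and 0.82 for the 6 pairs over 28 libraries, while the other 39 pairs of members lay between -0.33 and 0.53. Without the same 2 libraries the 6 pairs lay between 0.09 and 0.71, with Bhlhe40 and Bhlhe41 at 0.71 and Nr1d1 and Bhlhe41 at 0.09. Normoxic chondrocyte library 1 was low in Dbp, Bhlhe41 and Nr1d1, and hypoxic chondrocyte library 1 was high in all 4. The 4 genes were chosen from these correlations after their values were seen, so the correlations are a description.

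**Figure D5:**
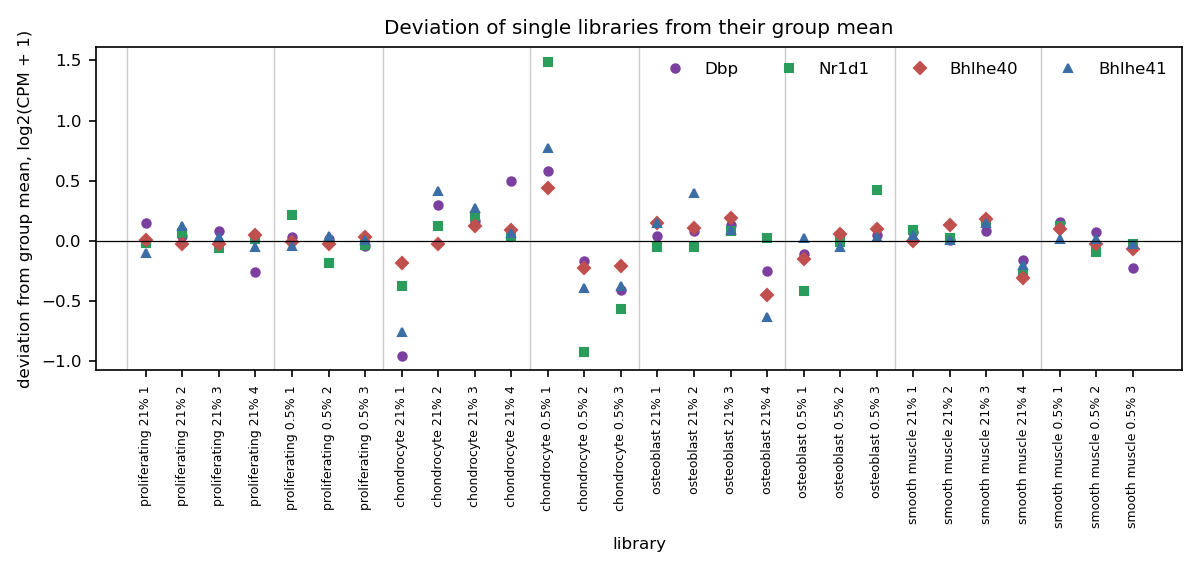
Deviation of each library from its group mean, on the log2(CPM + 1) scale, for Dbp, Nr1d1, Bhlhe40 and Bhlhe41 in the 28 libraries, ordered by group. Hypoxic chondrocyte library 1 lies above its group mean for all 4 genes, with Nr1d1 highest at 1.49, and normoxic chondrocyte library 1 lies below its group mean for all 4.

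Among 18 further clock genes (paralogs, ROR receptors, PAR bZIP factors, and kinases and ligase subunits that set protein turnover), 7 rose and 2 fell with low oxygen in proliferating cells of 15 tested (65.4% of all genes were called). In osteoblast cultures 8 of 17 rose and 1 fell (54.3% of all genes called), in chondrocyte cultures 7 of 16 rose and 3 fell (22.2%), and in smooth muscle cultures 6 of 18 rose and 6 fell (75.6%). Ciart, a repressor of the ARNTL and CLOCK pair, had the largest rise of the list with low oxygen in 3 of the 4 cultures, by 5.03 ± 0.24 in osteoblast (adjusted p = 5.96e-07), 4.53 ± 0.42 in smooth muscle (adjusted p = 1.22e-07) and 1.85 ± 0.22 in chondrocyte cultures (adjusted p = 2.31e-04). Its mean went from 1.24 to 40.7 CPM in osteoblast cultures. Nfil3, which opposes DBP at D-boxes, rose with low oxygen in all 4 cultures, from 38.5 to 226 CPM in osteoblast cultures, where Dbp rose too, and by 0.84 in chondrocyte cultures; its rise of 0.53 in smooth muscle cultures is smaller than the shift of all genes by library size. Per3 fell by 2.06 ± 0.22 in smooth muscle (adjusted p = 6.01e-07) and by 1.35 ± 0.28 in chondrocyte cultures (adjusted p = 0.00545) and was not called in the other 2. Per1 rose with low oxygen in proliferating (1.03), osteoblast (1.29) and smooth muscle cultures (1.85) and had 0.18, not called, in chondrocyte cultures.

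With differentiation, the ROR receptor gene Rora stood out on that list. It was at 0.00 CPM in all normoxic proliferating libraries and averaged 4.76 CPM in normoxic chondrocyte, 1.03 CPM in normoxic osteoblast and 0.627 CPM in normoxic smooth muscle cultures. At 0.5% O2 it averaged 0.379 CPM in proliferating cells, 14.2 CPM in chondrocyte and 8.78 CPM in osteoblast cultures, rises of 5.21 ± 0.28 (adjusted p = 4.12e-09) and 4.53 ± 0.29 (adjusted p = 1.69e-09). ROR proteins are known to activate Arntl through the same element that REV-ERB proteins use to repress it. Timeless, which takes part in DNA replication, had the largest fall of the list with chondrocyte and osteoblast conditions at both oxygen levels, by between 2.05 and 4.196. Of the 18, 5 rose and 5 fell of 15 tested in normoxic chondrocyte (74.9% of all genes called), 9 rose and 6 fell of 16 in normoxic osteoblast (78.7%) and 9 rose and 7 fell of 17 in normoxic smooth muscle conditions (79.7%). Under hypoxia, with 16 tested in each, 6 rose and 8 fell in chondrocyte (69.5%), 8 rose and 7 fell in osteoblast (71.3%) and 5 rose and 6 fell in smooth muscle cultures (70.0%). Npas2, a paralog of Clock, rose with chondrocyte and osteoblast conditions at both oxygen levels, by between 0.66 and 1.71. With smooth muscle conditions it rose by 2.31 ± 0.18 at 21% O2 (adjusted p = 6.83e-09), from 1.31 to 6.19 CPM, and was -0.63 ± 0.51 at 0.5% O2, not called. Tef, a relative of Dbp, rose with osteoblast conditions by 1.49 at 21% and 1.69 at 0.5% O2 and with normoxic smooth muscle conditions by 1.18. Its rise of 1.11 with smooth muscle conditions at 0.5% O2 is smaller than the shift of all genes by library size.

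For Bhlhe40 2 of the 3 most like genes, Bnip3 first, stayed among the top 3 without the hypoxic smooth muscle libraries. For Clock (Nhs, r = 0.976) and Bhlhe41 (Alas1, the first enzyme of heme synthesis, r = 0.867) 2 of 3 stayed as well, and the top gene was the same. For Per2 (Tns1, r = 0.958) 1 of 3 did, and Klf9, a glucocorticoid response gene, then ranked first. For Arntl (Cth, 0.962), Cry1 (Elovl1, 0.848), Cry2 (Phc3, 0.940), Nr1d1 (Patl1, 0.922), Nr1d2 (Nsmce4a, 0.866) and Dbp (Dpf2, 0.937) none of the 3 did.

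Several members overlap a gene on the opposite strand, and the strand setting of the authors' counting is not given in the sources used here. Thra, which shares exon sequence with Nr1d1, had 123961 counts over the 28 libraries against 26094 for Nr1d1, and its oxygen change was 1.61 in proliferating, -0.42 in osteoblast and 0.21 in smooth muscle cultures, where Nr1d1 changed by -1.11, 2.46 and 3.92. Sphk2, opposite Dbp, had 18030 counts against 19538 for Dbp and changed by between -0.17 and 0.07 with oxygen in the 4 cultures. The antisense transcript 0610040F04Rik moved with Bhlhe40 (2.98, 3.34 and 3.36 with low oxygen in proliferating, osteoblast and smooth muscle cultures) and had 2105 counts against 120040. Gm43909, opposite Bhlhe41, had 904 counts against 18910, and the genes opposite Arntl and Cry2 had 49 and 103 counts.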

How the data were processed

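RNA sequencing of 28 O9-1 libraries was analysed from the deposited whole-number read counts per gene, made by the authors with HISAT2 2.0.5, StringTie 1.3.3b and featureCounts 1.5.0-p3 on mm10, per the submitters' processing notes. Strand setting and annotation release are not given in the sources used here. The authors' 10 deposited comparison tables hold log2 fold changes, used for comparison only, and 70 columns of per-library values in them were not used. Symbols came from those tables and the reference gene names, and coordinates and promoter windows from GRCm38, which is mm10.

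Counts were scaled by TMM, filtered with filterByExpr (10 counts, total 15) and tested two-sided with edgeR 4.0.16's quasi-likelihood test (R 4.3.3), with Benjamini-Hochberg adjustment over all genes tested, on the groups compared only. The interaction was the hypoxic minus the normoxic change from proliferating cells. On simulated counts the fit recovered 100% of genes changed by log2 1 and by log2 2 in hypoxic against normoxic proliferating cells (14087 genes) and in hypoxic against normoxic smooth muscle cultures (14702 genes). The changed genes were drawn from those with higher counts, and all genes were given the same spread. The recovery therefore does not carry over to members with few counts or a wide spread between libraries. Replicates of a group differed by more than sampling noise (chi-square over degrees of freedom from 2.89 to 97.0 in 36 pairs), so no library was counted as a copy. Alternatives were other scalings (library size alone, DESeq2 1.42.0 size factors, no mitochondrial or non-polyadenylated genes), other filters, the DESeq2 Wald test, limma-voom (limma 3.58.1), 1 fit over all 8 groups, a replicate block and leaving out each library.

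Named were the 10 members in all groups, the largest called rise and fall in each comparison among 18 further clock genes with Per1, Per3, Npas2, Nfil3 and Tef, the 3 genes most like each member among those with a mean of at least 10 CPM, and lists for hypoxia (19 genes), glucocorticoids (9 genes) and cell types (chondrocyte, osteoblast, smooth muscle, neural crest, adipocyte, glia, endothelium, skeletal muscle). Members and lists were chosen with earlier results of these data known. Lists are described by counts and medians with no test. In the text, genes of the lists are named where a result is set beside them.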

Additional observations from a re-analysis of the deposited data

Results flagged for a closer look

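Of 40 sets of 4 normoxic libraries, 1 for each member and group, 2 held a library far from the other 3 by Dixon's criterion, and chance gives about 1 in 20 such sets. Per2 was 7.03 CPM in normoxic smooth muscle library 4 and between 4.55 and 4.78 CPM in the other 3, from which that library differed by a chi-square per degree of freedom of 14 to 20.2 over all genes, against 6.10 to 7.93 among those 3. Bhlhe40 was 15.5 CPM in normoxic osteoblast library 4 and between 23.3 and 24.7 CPM in the other 3, and that library stood apart over all genes (chi-square per degree of freedom of 91.1 to 97.04 against the other 3). Groups of 3 were not examined this way.

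For 22 of 30 member values the oxygen change of a differentiated culture differed from that of proliferating cells by the test of the interaction, where 43.5% (chondrocyte), 54.2% (osteoblast) and 70.4% (smooth muscle) of all genes were called. In chondrocyte cultures the difference was -0.45 for Arntl, -1.10 for Per2, 0.59 for Cry1, -0.89 for Cry2, -2.23 for Dbp, -2.72 for Bhlhe40 and -3.86 for Bhlhe41. In osteoblast cultures it was 0.86 for Clock, -0.42 for Cry2, 3.62 for Nr1d1, 2.25 for Nr1d2, 0.89 for Dbp, 1.59 for Bhlhe40 and -0.59 for Bhlhe41. In smooth muscle cultures it was -0.85 for Arntl, -0.50 for Clock, -1.76 for Per2, 1.74 for Cry1, -1.54 for Cry2, 5.08 for Nr1d1, 2.27 for Nr1d2 and 2.08 for Dbp. With scaling by library size alone the smooth muscle values were -2.18 for Arntl, -1.84 for Clock, -3.09 for Per2, 0.41, not called, for Cry1, -2.87 for Cry2, 3.74 for Nr1d1, 0.94 for Nr1d2 and 0.75 for Dbp. Called in fewer than all fits that left out 1 library were Arntl in chondrocyte cultures (9 of 14), Bhlhe41 (2 of 14) and Cry2 (12 of 14) in osteoblast cultures, and Clock in smooth muscle cultures (13 of 14).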

How the results depend on the processing

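Of 1120 member values with 1 library left out, 1067 kept their direction and their side of the threshold, 37 lost the call, 14 gained one and 2 reversed. The number of members called ranged from 8 to 9, 5 to 7 and 7 to 8 in normoxic chondrocyte, osteoblast and smooth muscle against proliferating cultures, from 6 to 9, 9 to 9 and 9 to 9 in the hypoxic ones, from 9 to 10, 2 to 6, 8 to 9 and 9 to 9 with oxygen in proliferating, chondrocyte, osteoblast and smooth muscle cultures, and from 6 to 8, 5 to 8 and 7 to 8 in the 3 interactions. The 2 members called without hypoxic chondrocyte library 3, against 4, went with 2091 genes called in all, against 3157. Without hypoxic chondrocyte library 1, Nr1d1 was -1.24 against hypoxic proliferating cells and -0.94 in the chondrocyte interaction (adjusted p = 0.0026), the low ends of its left-out ranges, which reached 0.48 and 0.79 without hypoxic chondrocyte library 2.

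With scaling by library size alone, 110 of 130 member values kept direction and call, 6 lost it, 9 gained one and 5 reversed: against hypoxic proliferating cells Cry1 (-0.15), Bhlhe40 (-0.91) and Bhlhe41 (-1.23) in hypoxic smooth muscle cultures, Nr1d2 with oxygen there (-0.78) and Bhlhe40 in the smooth muscle interaction (-1.16). The share of called genes that were higher was then 34.7% against 50.3% in normoxic chondrocyte against proliferating cultures, and in the hypoxic ones 31.8% against 50.2% (chondrocyte), 38.2% against 50.8% (osteoblast) and 15.0% against 48.3% (smooth muscle). With oxygen it was 31.8% against 46.9% (chondrocyte), 36.9% against 49.6% (osteoblast) and 15.6% against 46.8% (smooth muscle), and in the smooth muscle interaction 16.6% against 49.6%. Beyond the smooth muscle comparisons given above, the median of all genes moved by -0.35 in normoxic and -0.33 in hypoxic chondrocyte against proliferating cultures. The median moved by -0.23 in hypoxic osteoblast against proliferating cultures, by -0.15 in normoxic osteoblast against proliferating cultures, by -0.16 with oxygen in osteoblast cultures, and by -1.33 and -0.12 in the smooth muscle and osteoblast interactions.

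Of the same 130 values, 128 were unchanged in direction and call with DESeq2 size factors, 130 without mitochondrial and non-polyadenylated genes, 128 without a filter, 126 with at least 10 counts in every library, 127 with the DESeq2 Wald test, 130 with limma-voom and 124 in 1 fit over all groups. Libraries with the same replicate number did not deviate together (r from -0.16 to 0.11 across genes, with all pairs over 0.1 in 0 of 10 comparisons), so the numbers were not taken as pairs. With a replicate block 126 of the 130 kept their call, and the 4 others were Arntl (0.32, gained) and Bhlhe41 (-1.65, lost, adjusted p = 0.233) with oxygen in chondrocyte cultures, Clock with oxygen in osteoblast cultures (0.28, gained) and Arntl in the osteoblast interaction (0.36, gained). Per2 had the lowest level of any member in a single library, with 1.296 to 36.8 CPM per library, and the part of depth was not tested.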

Other observations

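The authors' deposited tables give a log2 fold change for each member in the 10 pairwise comparisons. Over these 100 values the median size of the difference between the authors' deposited tables and the values above was 0.0118. The largest difference, 0.619, was that of Nr1d1 with low oxygen in chondrocyte cultures, which is -0.13 in the authors' deposited table and -0.75 above. In 1 value the sign differed, that of Cry1 in normoxic osteoblast against proliferating cultures, -0.02 in the authors' deposited table and 0.01 above.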
